A study of Mus musculus with 8 samples.

Results

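Interstitial macrophages are the macrophages of the lung tissue itself, around vessels, airways and nerves and in the alveolar walls, in contrast to alveolar macrophages, which sit in the air space. They are known to take up dead cells and debris, to present antigen on MHC class II molecules and to secrete complement component C1q, chemokines and interleukin 10. In mice they are described as at least a pair of populations, one rich in Lyve1, Folr2 and Cd163 that lies along blood vessels, and one rich in MHC class II. In these data they were the cells that the authors' deposited annotation labels M, the macrophages outside the alveolar macrophage label. There were 101 such cells among the 41106 in the matrix, and 9053 of the 40074 cells that remained without multiplets and cell cycle carried an immune label.

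Lung cells of 8 Sftpc-CreERT2-mTmG mice on a C57BL/6 background were sequenced one by one, 4 after 10 months of cigarette smoke (CS) and 4 after 10 months in room air (RA). In this strain a Cre enzyme driven by the promoter of surfactant gene Sftpc, which is active in alveolar type 2 cells, switches a red reporter to a green one after tamoxifen, so every mouse, the RA mice included, carried the transgenes and had received tamoxifen at 8 to 10 weeks of age. The green reporter was at 71.2 transcripts per 10,000 in type 2 cells and at 1.52 ± 0.596 in interstitial macrophages, the 19th of 32 labels. Leukocytes were depleted with CD45 beads and then added back at a set ratio, so that the share of macrophages among all cells was fixed in part by the protocol, and shares are given here among cells with an immune label. Mice are called CS mouse 1 to 4 and RA mouse 1 to 4, numbers that only name them. The labels put 1 CS and 1 RA mouse on each of 4 sequencing lanes.

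Before any comparison, the libraries were checked against their labels. Library totals ran from 31094695 to 52753531 transcripts. All 4 RA libraries matched the labelled sex, whereas all 4 CS libraries went against it. Both CS mice with a male label had the X-inactivation RNA Xist, at 7.18 and 7.44 per 10,000 over all their cells, and both with a female label had Ddx3y from the Y chromosome, at 0.692 and 0.827. Each group still held both sexes by either reading. Between libraries, 394 cells shared a barcode, and 0 of them were interstitial macrophages.

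The mice gave few of these cells. CS mice 1 to 4 gave 3, 14, 14 and 7 cells, and RA mice 1 to 4 gave 29, 15, 11 and 8 cells. Depth was between 1495 and 19522 transcripts per cell, with a median of 7550. Levels are given as transcripts per 10,000 of a cell, averaged over the cells of a mouse, with the mouse as the replicate. Each transcript was counted from its 3′ end, and a level does not scale with the length of the gene's mRNA. CS mouse 1, with 3 cells, was left out of means and of the tests of gene levels, which leaves 7 mice unless another number is given. In the authors' clustering, 100 of the 101 cells lay in a cluster of 406 cells that also held 273 dendritic cells and 28 multiplets, so the label M separates them from their neighbours within that cluster. Since cells were clustered on the same transcripts, differences from other cell labels are given as a description and were not tested.

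The label was checked against its markers, and all of them were found. C1qa, which encodes the A chain of C1q, the protein that starts the classical complement cascade, was at 50.6, 65.1 and 35.5 transcripts per 10,000 in CS mice 2 to 4 and at 52.2, 57.2, 56.3 and 55.4 in RA mice 1 to 4. All mice were high, and M ranked 1 of 32 labels, 13.6-fold above the next, mature dendritic cells at 3.92. A C1qa transcript was found in 97.0% of interstitial macrophages and in 0.214% of B cells, whose median depth was 4055 transcripts. With each cell thinned to 2000 transcripts the shares were 98.0% of 98 cells and 0.145% of 2064. The B and C chain genes were as widely found, C1qb at 45.6 ± 10.8 (SD, n = 7 mice) in 99% of cells and C1qc at 29.4 ± 3.77 in 96.0%. Cd74, the chaperone of MHC class II, reached 257 ± 77.4 and was the most abundant transcript. Mature dendritic cells had more Cd74, at 385, and type 1 conventional dendritic cells (cDC1), at 236, lay within the SD. H2-Aa, H2-Ab1 and H2-Eb1 were also highest in mature dendritic cells, so a high class II level was shared with dendritic cells. Mrc1, a mannose receptor, was at 8.87 ± 3.97 in 84.2% of cells, below alveolar macrophages at 11.6 and far above classical monocytes at 0.218.

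The 3 C1q genes lie side by side on the minus strand of mouse chromosome 4 (GRCm38), C1qb from 136880129 to 136886187, C1qc from 136889804 to 136893065 and C1qa from 136895917 to 136898803. Over the 101 cells their levels rose and fell together, with a Spearman rho of 0.730 for C1qa and C1qb, 0.734 for C1qa and C1qc and 0.579 for C1qb and C1qc, a description over cells that share libraries and depth. Since the genes moved together, the promoters that RefSeq gives for C1qb and C1qc are shown. Of the 3 genes searched, 2 had such a promoter, and C1qa had none. Each has 300 bases from 250 before the RefSeq start to 50 after it, 5′ to 3′ on the strand of the gene. The RefSeq starts differ from the gene ends given above, and that of C1qc lies inside its span. MAF and PU.1 are transcription factors of macrophages. Capitals mark TGCTGA, a half-site of MAF, and AGGAAG, a core that PU.1 binds, on either strand (TCAGCA and CTTCCT). No marked stretch overlaps another.
C1qb (chr4:136886151-136886450, minus strand, GRCm38.p6): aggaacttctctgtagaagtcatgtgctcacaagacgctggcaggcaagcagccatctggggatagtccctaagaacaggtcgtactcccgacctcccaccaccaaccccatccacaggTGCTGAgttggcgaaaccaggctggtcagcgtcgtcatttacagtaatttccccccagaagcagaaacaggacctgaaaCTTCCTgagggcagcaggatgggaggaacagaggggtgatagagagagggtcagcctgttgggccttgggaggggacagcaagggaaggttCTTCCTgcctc
C1qc (chr4:136892865-136893164, minus strand, GRCm38.p6): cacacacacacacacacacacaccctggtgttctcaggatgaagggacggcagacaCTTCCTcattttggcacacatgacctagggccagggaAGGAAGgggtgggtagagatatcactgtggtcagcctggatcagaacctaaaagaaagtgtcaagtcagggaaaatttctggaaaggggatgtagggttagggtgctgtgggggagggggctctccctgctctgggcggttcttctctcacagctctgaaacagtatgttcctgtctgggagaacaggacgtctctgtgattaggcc
Both windows hold 2 PU.1 cores and only that of C1qb holds the MAF half-site, 1 match. Of 32851 promoters of the same length, 35.4% hold the PU.1 core and 19.5% the MAF half-site, so that the matches describe these letters and no more.

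Among the wider set of 20 interstitial macrophage markers, M ranked first of 32 labels in 11 and among the first 3 in 19. Csf1r, the receptor for the survival factors CSF1 and IL-34, was even between mice at 7.81 ± 0.442 (lowest 7.20, highest 8.48). It lay between non-classical monocytes at 10.4 ± 0.819 and classical monocytes at 5.50 ± 0.616, and alveolar macrophages had 0.674. Cx3cr1, the receptor for fractalkine, was at 3.46 ± 0.824, the highest of the labels but within the spread of non-classical monocytes at 3.16 ± 0.689. Ms4a7, a membrane protein of tissue macrophages, reached 5.76 ± 2.77 and at most 0.112 in the other labels. The apolipoprotein gene Apoe was at 123 ± 33.6, against 31.6 in the next label, basal cells, and platelet factor 4 (Pf4), a chemokine made by megakaryocytes and macrophages, at 11.4 ± 2.99 against 0.894 in alveolar macrophages. The source of the matching ligands was looked up over the labels. Csf1 was highest in the label mast cells at 4.80 ± 0.955 and next in mesothelium at 2.08 ± 0.276, Il34 in pericytes at 2.37 ± 1.23, and fractalkine (Cx3cl1) in capillary A endothelium at 1.15 ± 0.334.

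**Figure D1:**
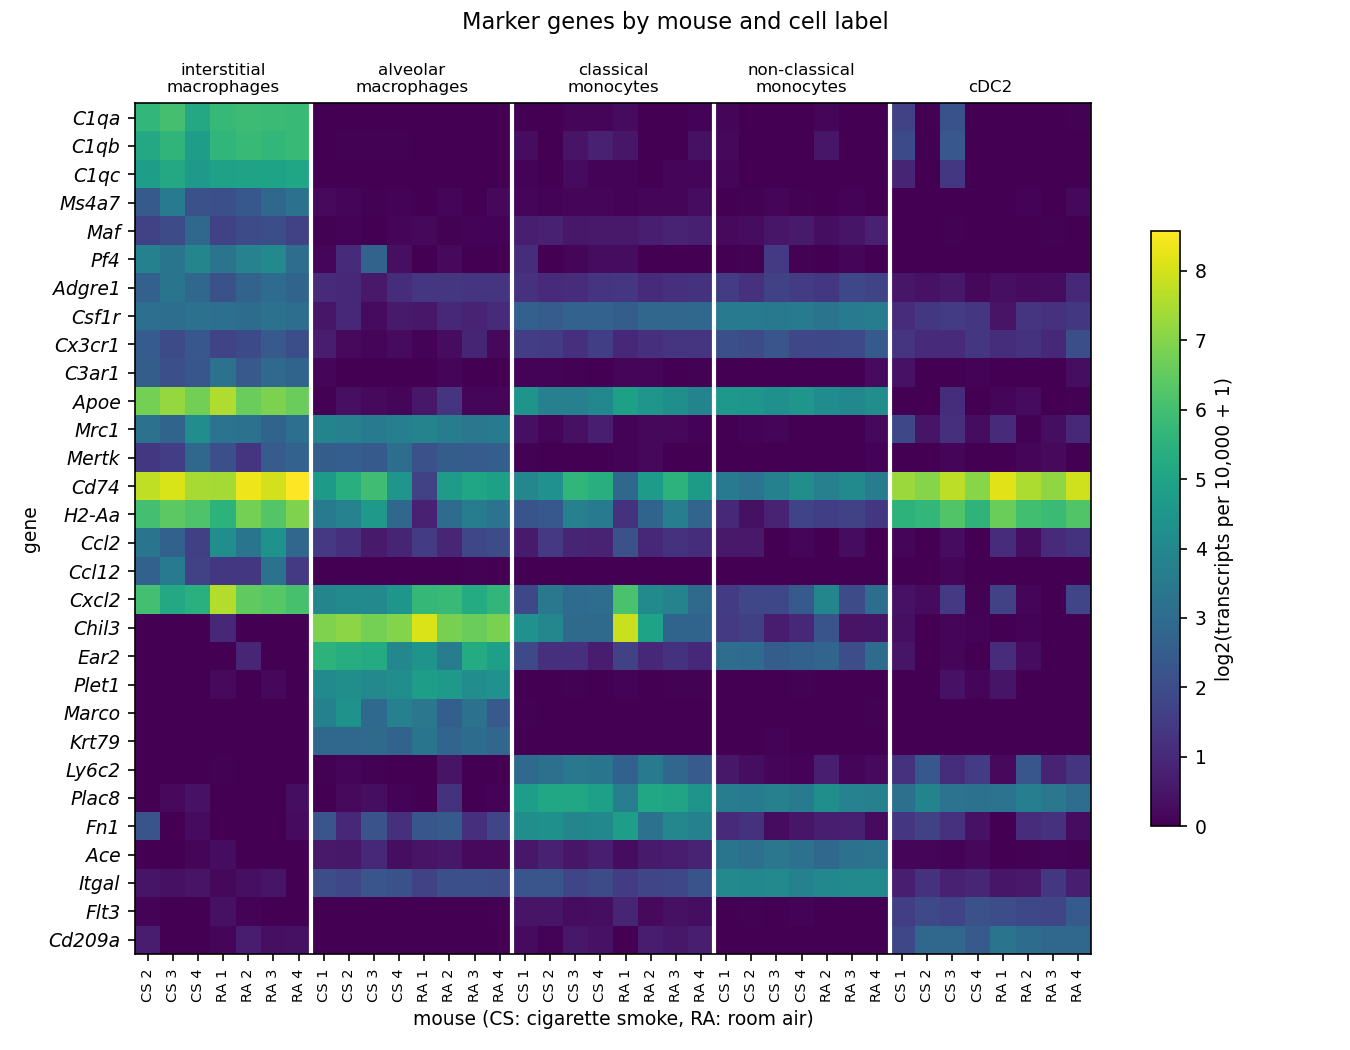
Heat map of 30 genes (rows) in each mouse (columns, labelled by group and number) with at least 5 cells of a label, for interstitial macrophages, alveolar macrophages, classical and non-classical monocytes and type 2 conventional dendritic cells (cDC2). Colour gives log2 of the mean transcripts per 10,000 plus 1. The C1q genes are bright in all 7 mice with interstitial macrophages and near 0 in the rest, apart from a few transcripts in cDC2 of CS mice 1 and 3. Chil3, Ear2, Plet1, Marco and Krt79 are bright in alveolar macrophages and dark in interstitial macrophages.

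Against alveolar macrophages of the same mouse, Apoe, the C1q genes and most class II genes were higher, and the markers of the air space macrophage were lower. A gene was compared if 25% or more of the cells of either label held it, and of 4580 such genes 659 (14.4%) were higher in interstitial macrophages in all 7 mice and 1006 (22%) lower. Apoe led, with a median log2 difference (of levels plus 1) of 6.58 and a range over mice of 5.29 to 7.0. It was followed by C1qa at 5.82, C1qb at 5.62, C1qc at 4.96, the class II genes H2-Eb1 at 3.73 and H2-Aa at 3.37, Pf4 at 3.29 and Ccl4 at 3.26. Among the 10 lowest were Chil3, a chitinase-like lectin, at -6.84 (range -7.13 to -6.61), the eosinophil-type ribonuclease gene Ear2 at -4.85, Kcnip4 at -4.57, Plet1 at -4.24, lipoprotein lipase (Lpl) at -3.61 and the cholesterol exporter Abcg1 at -3.30. Of 20 interstitial macrophage markers 17 were higher in all 7 mice and 0 lower, and of 18 alveolar macrophage markers 0 were higher and 17 lower. Of 10 class II presentation genes compared, 7 were higher in every mouse and 0 lower, and of 11 complement genes 6 were higher and 3 lower. Lipid handling genes went the other way from Apoe, with 4 of 19 higher and 11 lower. Marco, Siglecf, Krt79 and Fabp1 were listed at 0 in all 7 mice. With cells thinned to 2000 transcripts, the difference was 6.58 for Apoe, 5.73 for C1qa and -6.79 for Chil3.

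Monocytes of the same mice also had less C1q, Pf4 and H2-Eb1 transcript, and more of the monocyte markers. Against classical monocytes, 555 of 4480 genes (12.4%) were higher in all 7 mice and 929 (20.7%) lower. C1qa was higher by 5.75, H2-Eb1 by 4.14, Pf4 by 3.61 and Cd74 by 3.40 on the log2 scale, and the monocyte genes Plac8 at -4.87, Thbs1 at -3.99, fibronectin (Fn1) at -3.75, Ifitm3 at -3.38 and Ly6c2 at -3.16 were lower. Of 11 classical monocyte markers, 10 were lower in all 7 mice. Vcan was listed at 0, and the chemokine receptor gene Ccr2 was at 0.898 ± 0.740 against 8.01 in classical monocytes. Against non-classical monocytes, compared in 6 mice because RA mouse 1 had 2 such cells, 685 of 4360 genes (15.7%) were higher in every mouse and 1023 (23.5%) lower. The integrin Itgal at -3.62 and the peptidase Ace at -3.17 were among the lowest, and all 10 non-classical monocyte markers were lower. Against cDC2, 551 of 5252 genes (10.5%) were higher in all 7 mice and 810 (15.4%) lower. Of 13 class II presentation genes compared with cDC2, 2 were higher in every mouse and 2 lower, with a median log2 difference of -0.145. The mean profile was correlated with each label over a set of genes that differed by label (7659 to 9066 genes), so close values do not order the labels. As a description, Pearson r was 0.830 with mature dendritic cells, 0.795 with cDC2, 0.794 with classical monocytes, 0.762 with cDC1, 0.727 with non-classical monocytes and 0.725 with alveolar macrophages. Of 13 dendritic cell markers 8 could be compared with cDC2, and 7 were lower in every mouse and 1, the lectin Mgl2, higher. Mgl2 was at 4.38 ± 3.05 against 0.673 in cDC2, second to mature dendritic cells at 16.9. Flt3, the receptor for a dendritic cell growth factor, was at 0.0598 against 2.87 in cDC2, Zbtb46 at 0.122 against 3.18 and Cd209a at 0.267 against 6.02.

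Many secreted factors were highest in these cells. Of 33 chemokine and cytokine genes listed, 11 were highest in M among the 32 labels and 23 were in its first 3. Of all 7615 genes that reached 1 transcript per 10,000 in some label, 131 (1.72%) were highest in M. The monocyte chemoattractants Ccl2, Ccl7, Ccl12 and Ccl8, which lie together on chromosome 11 (GRCm38, 82035571 to 82116799), were each highest here. Ccl7 was at 10.0 ± 7.28, Ccl2 at 9.88 ± 6.52, Ccl12 at 4.56 ± 3.80 and Ccl8 at 3.43 ± 3.46. In the next label Ccl7 was at 3.08, Ccl2 at 5.01 ± 4.69, Ccl12 at 0.126 and Ccl8 at 0.248. That label was mature dendritic cells for Ccl2, Ccl7 and Ccl12 and adventitial fibroblasts for Ccl8. It lay within the SD of interstitial macrophages for Ccl2, Ccl7 and Ccl8, and outside it for Ccl12. Ccr2, the receptor for Ccl2, Ccl7 and Ccl12, was highest in classical monocytes. The inflammatory cytokine Tnf was at 13.2 ± 5.89, against 7.13 in alveolar macrophages. The interferon-induced chemokine Cxcl10 was at 10.5 ± 4.97, with peribronchial fibroblasts within that SD at 7.74. The anti-inflammatory cytokine Il10 was at 2.54 ± 2.26, with the label mast cells within that SD at 0.662. Cxcl13, which attracts B cells, was at 2.21 ± 2.71, with mesothelium within that SD at 1.22, and was listed at 0 in at least 1 mouse. Cxcl2, which attracts neutrophils through Cxcr2, was at 80.9 ± 51.8, second to neutrophil granulocytes at 126 and above alveolar macrophages at 32.7. The spread between mice was wide, and for Ccl8 and Cxcl13 the SD was larger than the mean. Of 16 immediate-early and stress genes, which also respond to tissue digestion, 6 were above alveolar macrophages in every mouse and 5 above classical monocytes, 0 were below either, and the rest were neither higher nor lower in all mice. The heat shock genes on that list, Hspa1a at 23.7 ± 15 and Hspa1b at 12.6 ± 8.91, lay within their spread over mice of peribronchial fibroblasts, the next label, at 20.1 and 9.74, and Fos and Jun ranked 13th and 18th of the 32 labels. The part of handling in the chemokine levels was not tested.

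**Figure D2:**
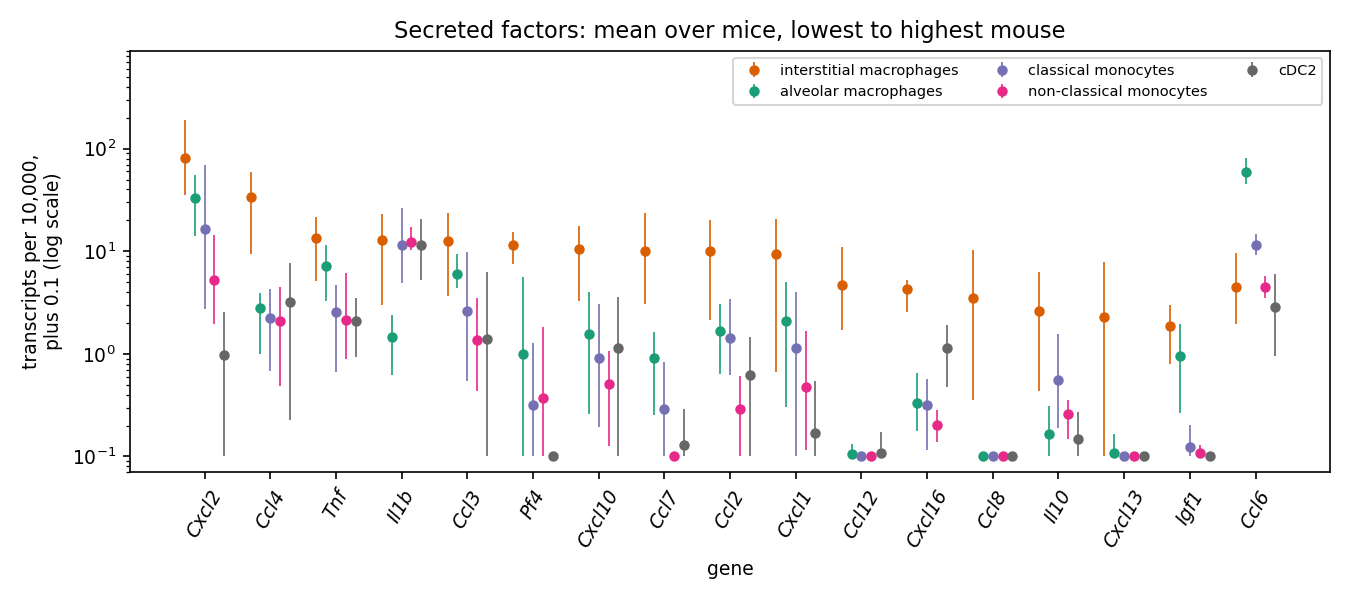
Levels of 17 secreted factors (horizontal axis) in 5 labels, as transcripts per 10,000 plus 0.1 on a log scale. Points are means over mice and lines run from the lowest to the highest mouse with at least 5 cells. Interstitial macrophages lie highest of the 5 for Ccl2, Ccl7, Ccl8, Ccl12 and Pf4, and for Ccl6 they lie below alveolar macrophages.

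Receptors and enzymes of clearance differed by family. Of 6 Fc receptor genes, which bind antibody-coated particles, 4 were highest in M, among them Fcgr3 at 6.00 ± 1.54 and Fcgr2b at 3.43 ± 0.385. Scavenger and lectin receptors were highest in M for 3 of 21 genes and efferocytosis genes, which serve the uptake of dead cells, for 1 of 16. Of 15 scavenger and lectin receptors compared with alveolar macrophages, 3 were higher in every mouse and 4 lower, with a median log2 difference of -0.33. The complement receptors C3ar1, at 5.26 ± 1.74 and highest of the labels, and C5ar1, at 7.23 ± 2.77 and second to neutrophils at 9.80, were also found, while complement C3 itself was at 0.396 against 82.8 in mesothelium. Of 19 lysosomal proteases and inhibitors 4 were highest in M. Ctsc was at 11.3 ± 1.64, legumain (Lgmn) at 8.99 ± 1.67 and Hexa at 5.71 ± 1.25, each the highest of the labels. Within those SDs lay alveolar type 2 cells for Ctsc, at 9.70, and alveolar macrophages for Hexa, at 4.88. Trem2, a lipid-sensing receptor, was at 2.58 ± 0.963 and highest, and the matrix proteases Mmp12, at 3.18 ± 1.89, and Mmp13, at 1.0 ± 1.1, were highest too. For Mmp12 mature dendritic cells, at 2.09, lay within the SD, and for Mmp13 the SD was larger than the mean. The metallothionein Mt1 was at 11.6 ± 3.14, against 23.1 in alveolar macrophages, and heme oxygenase Hmox1 at 3.41 ± 1.07 against 6.40. Both were above classical monocytes, at 1.04 and 1.71.

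Within the label, cells fell apart by their class II level, and 1 mouse held most of the low ones. The levels of H2-Aa, H2-Ab1, H2-Eb1 and Cd74 were summed for each cell, and a limit of 50 per 10,000, set after seeing the data, was drawn in a sparse stretch with 7 cells between 20 and 100. Below it were 26 of the 101 cells (25.7%, 95% Wilson interval 18.2% to 35.0%, counting error only), with a median of 4.16 against 667 in the other 75. The cells nearest the limit had 40.7 and 65.9. RA mouse 1 held 16 of the 26, which was 55.2% of its 29 cells, against 1 of 15, 1 of 11 and 1 of 8 in RA mice 2 to 4 and 0 of 3, 3 of 14, 3 of 14 and 1 of 7 in CS mice 1 to 4. A low class II level in RA mouse 1 was not found in interstitial macrophages alone. The median class II sum of its alveolar macrophages was 0, against 19.0 to 109 in the other mice, and that of its alveolar type 2 cells was 23.8, against 58.7 to 81. Its B cells, at 314 against 169 to 256, and its cDC2, at 539 against 163 to 542, were not lower. The part of the library in the low share was not tested.

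The Lyve1-linked genes followed the class II split in part. A transcript of Lyve1, Folr2 or Cd163 was found in 36 of 101 cells (35.6%, Wilson 27.0% to 45.4%), by mouse in 0, 5, 5 and 1 cells of CS mice 1 to 4 and 13, 6, 4 and 2 cells of RA mice 1 to 4. Folr2, a folate receptor, at 1.23 ± 0.952, and Cd163, the receptor for haemoglobin bound to haptoglobin, at 1.52 ± 1.25, were highest in M among the labels, whereas Lyve1, at 1.2 ± 1.35, was higher in endothelium. The median class II sum was 116 in the 36 cells and 626 in the 65 without these genes, at similar median depths of 8144 and 7348 transcripts. RA mouse 1 gave 13 of the 36 cells. Without it, as was computed after seeing the data, the medians were 291 in 23 cells and 686 in 49, and 5 cells of each set were class II-low. Of the 26 class II-low cells 16 held at least 1 of these genes, 11 of 16 in RA mouse 1 and 5 of 10 in the others. Among the genes listed, picked after their values were seen, F13a1 was found in 77.8% of cells with these genes and 7.69% without, Pf4 in 94.4% and 49.2%, Ccl7 in 77.8% and 20%, Itgax in 11.1% and 58.5% and Il1b in 33.3% and 67.7%. Class II-low cells held Ciita, the master regulator of class II genes, in 7.69% against 54.7% of the others, and Mmp12 in 7.69% against 44.0%, while Clec4d was found in 73.1% against 25.3%. Without RA mouse 1 the class II-low share with Ciita was 10% of 10 cells against 62.9% of 62, with Mmp12 20% against 35.5% and with Clec4d 70% against 25.8%. For cells with and without the Lyve1-linked genes it was 73.9% and 6.12% for F13a1, 95.7% and 61.2% for Pf4, 69.6% and 20.4% for Ccl7, 8.70% and 61.2% for Itgax and 30.4% and 59.2% for Il1b. The cells share libraries, and no test was made over them. Over the 101 cells depth had a Spearman rho of 0.173 with the class II sum.

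**Figure D3:**
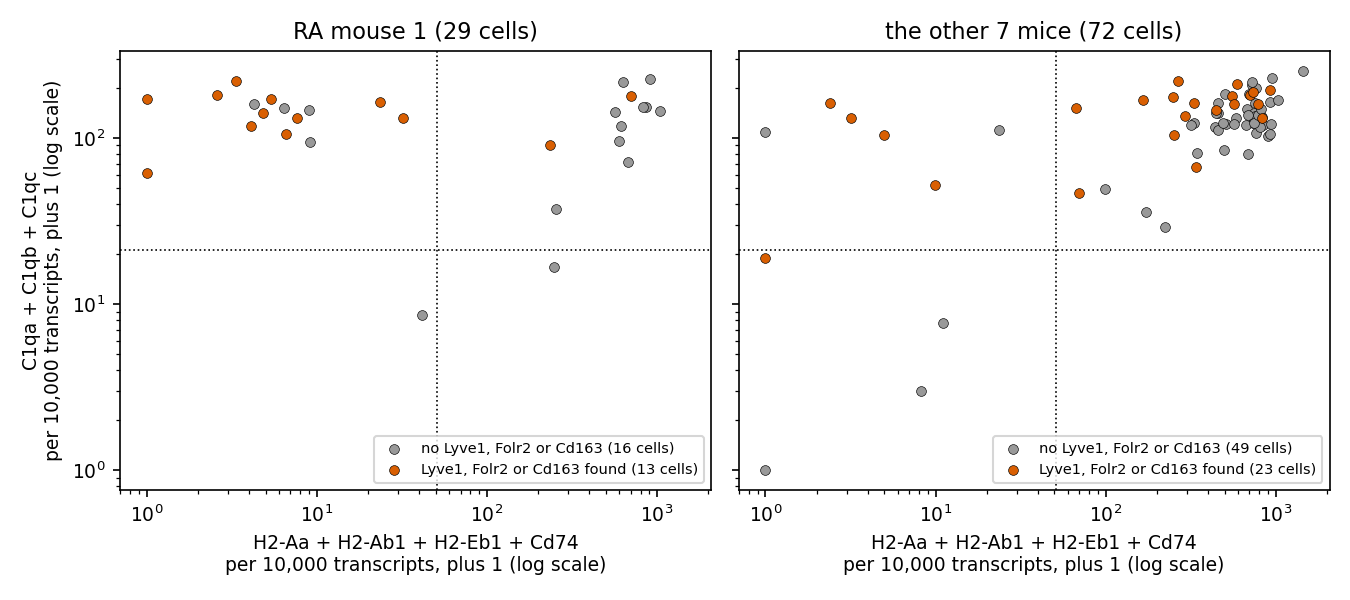
Each point is 1 interstitial macrophage, with the summed class II genes on the horizontal axis and the summed C1q genes on the vertical axis, both per 10,000 transcripts plus 1 on log scales. The left panel shows the 29 cells of RA mouse 1 and the right panel the cells of the other mice, orange where Lyve1, Folr2 or Cd163 was found. Dotted lines mark 50 for class II and 20 for C1q, and 16 of the 29 cells on the left lie below the class II limit against 10 of the rest.

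A few cells held much of another cell type's RNA. The summed C1q level was under 20 in 6 cells, 5 of them also low in class II. A single cell of CS mouse 3 carried 97.9% of all erythrocyte marker transcripts of the label, at 2073 per 10,000. A single cell of RA mouse 1 carried 76.3% of the neutrophil markers and another of that mouse 62.9% of the epithelial markers. T and NK markers were the emptiest list, with 7 of 10 genes listed at 0. Alveolar macrophage markers summed to between 9.05 and 22.8 in CS mice 2 to 4 and 9.38 and 12.7 in RA mice, with 4 of 18 genes at 0. Without the 6 cells low in C1q, 0 genes passed between CS and RA mice, as with them, and 578 had an unadjusted p under 0.05 (limma). The part of the other cells in the results was not tested.

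The design next asks whether smoke changed how many of these cells there were. Among immune cells, interstitial macrophages made up 0.289%, 1.10%, 0.850% and 0.578% in CS mice 1 to 4 and 3.6%, 1.37%, 1.06% and 0.839% in RA mice 1 to 4. RA mouse 1 stood above all others and the remaining values of the groups overlapped. CS mice averaged 0.704% ± 0.350 and RA mice 1.72% ± 1.27 (SD, n = 4 each), a difference of -1.01 percentage points smaller than the spread between RA mice (exact two-sided permutation p = 0.143, where 70 assignments allow no p below 0.0286). Without RA mouse 1 the difference was -0.388 points (exact p = 0.229). With macrophages and monocytes as the denominator the means were 4.57% and 8.51% (exact two-sided permutation p = 0.200). The share was smaller after smoke on 3 of the 4 lanes. Median depth per cell was 7057 ± 1497 transcripts in 3 CS mice and 8355 ± 1610 in 4 RA mice (exact two-sided permutation p = 0.314).

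**Figure D4:**
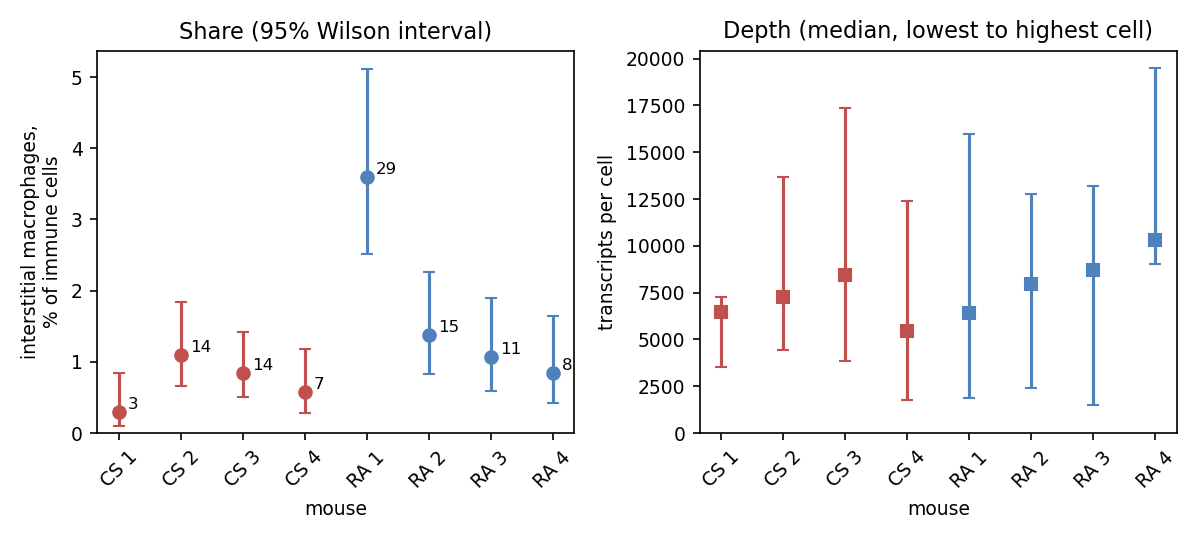
Left, interstitial macrophages as a percentage of cells with an immune label in each mouse, with 95% Wilson intervals (counting error only) and the number of cells beside each point. Right, the median number of transcripts per cell, with lines from the lowest to the highest cell. CS mice are red and RA mice blue, and RA mouse 1, at 3.6%, lies above the other 7.

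Gene levels were compared between CS mice 2 to 4 and the 4 RA mice with limma. Of 8113 genes tested 0 passed an adjusted p of 0.05, which is 0% of them, and the smallest adjusted p was 0.685. An unadjusted p under 0.05 was reached by 569 genes (7.01%), and the groups did not overlap in 596 (7.35%), 382 higher in CS (4.71%) and 214 lower (2.64%). The median log2 difference of all genes was 0.03, with a median standard error of 0.21. Of the genes tested 55.3% were higher in CS. Without the filter on genes it was 47.4% of 16552, with a median of -0.01, so the share higher in CS depended on the filter. With the sequencing lane as a replicate block 2 genes passed, Spp1 at a log2 difference of 1.54 (adjusted p = 0.0344, limma) and Negr1. CS mouse 1 was out of the fit, so RA mouse 1 stood alone on its lane and did not add to either difference. Without the block Negr1 differed by -0.95 and the groups overlapped, with RA mouse 1 lowest at 0.0652. All genes below had an adjusted p of 0.685 or more without the block (limma), and their values are given as measured.

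The chemokine Cxcl2 (chromosome 5, 90903871 to 90905938) and the lipopolysaccharide co-receptor Cd14 had the smallest p among the genes that were lower in CS. Cxcl2 was at 62.9, 35.0 and 42.7 transcripts per 10,000 in CS mice 2 to 4 and at 190, 88.3, 80.6 and 66.8 in RA mice 1 to 4, and CS mouse 1, outside the test, had 33.8. The groups did not overlap, and RA mouse 1 was highest. The log2 difference was -1.08 (standard error 0.30). In alveolar macrophages of the same mice, CS mice 2 to 4 and RA mice 1 to 4, it was -1.40 with an adjusted p of 0.00387 (limma). Cxcl2 was 1 of 8 genes that passed there among 7599 (0.105%). Cd14 was at 12.0, 14.0 and 6.72 in CS and 31.3, 30.5, 19.4 and 23.5 in RA, a log2 difference of -1.22 (standard error 0.31). CS mouse 1, at 20.4, lay within the range of the RA mice. Mmp12, macrophage elastase, was at 2.27, 2.44 and 0.115 in CS and 2.97, 5.75, 5.12 and 3.61 in RA (-1.17), whereas CS mouse 1, with 3 cells, had 6.88 and was above them all.

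The remaining genes with the smallest p ran in both directions. Lower in CS mice 2 to 4 without overlap were the protease inhibitor Slpi (-1.33), the calcineurin inhibitor Rcan1 (-0.87) and Anxa11 (-0.89), although CS mouse 1 had Anxa11 at 3.73, above every RA mouse. The lectin Cd209g (-0.97) and the fatty acid receptor Cd36 (-1.12) overlapped between the groups. Higher were Pdss2 (0.83), Fat3 (0.51), Csf2rb, a chain of the GM-CSF receptor (0.81), Armc8 (0.78), Fggy (0.93) and AU020206 (0.95), all under 4 transcripts per 10,000 in each mouse. CS mouse 1, outside the test, had 0 for Pdss2, Fat3 and Armc8, and Csf2rb at 0.453, within the range of the RA mice. Its Fggy, at 0.514, and AU020206, at 2.44, were above every RA mouse. Fabp5, a fatty acid binding protein (chromosome 3, 10012548 to 10016607), was at 2.51, 2.28 and 0.407 in CS and 0.0284, 0.0844, 0.218 and 0.356 in RA, a log2 difference of 1.12 (standard error 0.27), and it was found in 9 of 35 CS cells and 7 of 63 RA cells. CS mouse 1 had 0 for Fabp5. A few cells held most of the Fabp5 level of CS mice 2 and 3. In CS mouse 2 it was a cell with 33.0 that was low in C1q (summed level under 20). In CS mouse 3 it was cells with 15.2 and 11.8. The next CS cell, of CS mouse 3, had 2.94, and the highest RA cell, of RA mouse 3, had 1.31. Spp1, which encodes osteopontin (chromosome 5, 104435118 to 104441050), was at 4.20, 5.41 and 0 in CS and 0.0276, 0.359, 0 and 0 in RA. CS mouse 1 had 0 for Spp1, and the log2 difference in the tested mice was 1.57 (standard error 0.40). Only 2 cells set the Spp1 level in CS, 1 of CS mouse 3 with 72.8 and no C1q transcript and 1 of CS mouse 2 with 54.8. The next CS cell, of CS mouse 2, had 2.22, and the highest RA cell, of RA mouse 2, had 3.37. Leaving out CS mouse 4 brought 4 genes past the threshold, Spp1 at a log2 difference of 2.41, Fabp5 at 1.54, Il6, which the filter on genes had kept out before, and Gpnmb. All of them were under 1 transcript per 10,000 outside CS mice 2 and 3.

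**Figure D5:**
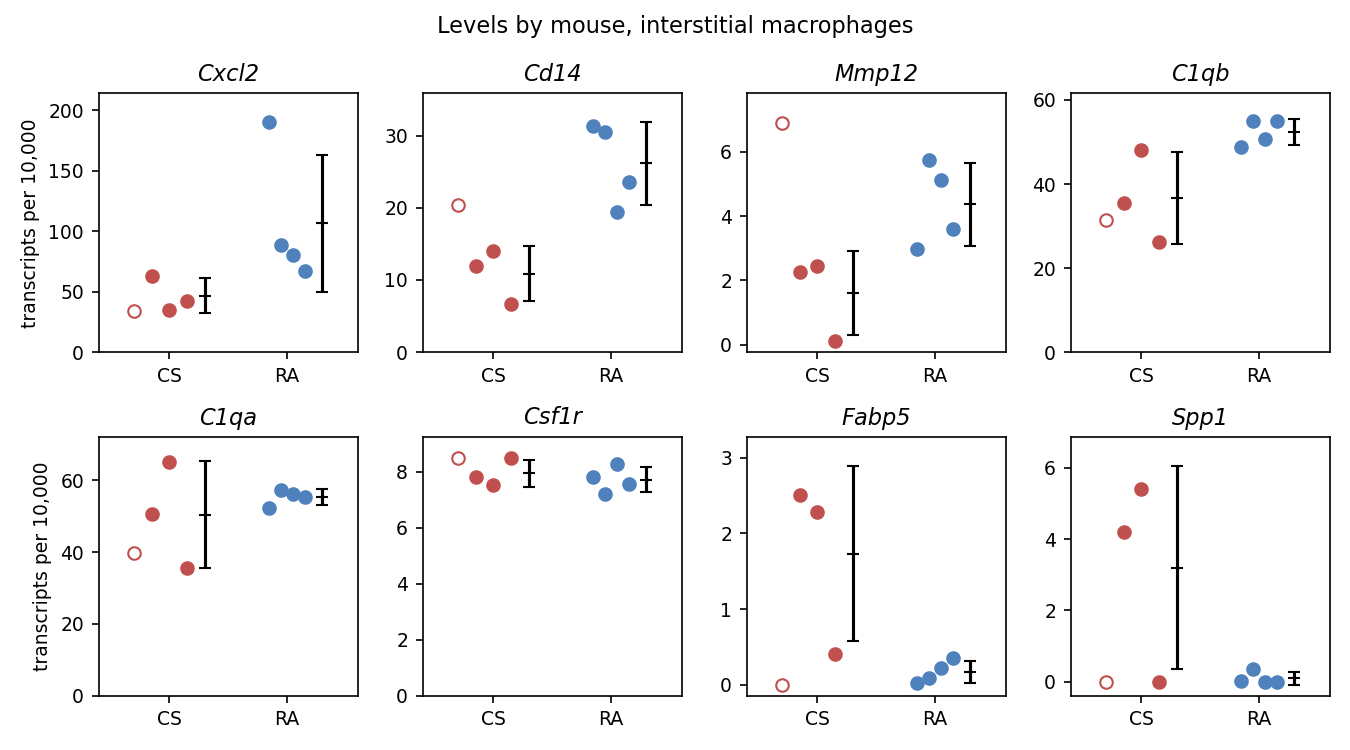
Transcripts per 10,000 of 8 genes in interstitial macrophages, 1 filled point per mouse with at least 5 cells (CS red, RA blue), with the mean and SD beside them. The open point is CS mouse 1, with 3 cells, which did not enter the test. Cxcl2, Cd14 and C1qb of the filled CS points lie below all RA points, and the open point lies among or above the RA points for Cd14 and Mmp12.

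Of 20 interstitial macrophage markers, 10 were higher and 10 lower in CS, with a median log2 difference of 0.02, and C1qb was the only one without overlap. C1qa had a log2 difference of -0.17 (standard error 0.25) and Csf1r of 0.04 (0.29). C1qb was at 35.4, 48.2 and 26.3 in CS mice 2 to 4 and 48.9, 54.9, 50.7 and 55.1 in RA mice, a log2 difference of -0.55 (0.26) without overlap, and CS mouse 1 at 31.3 was also below the RA mice. C1qc overlapped between the groups (-0.12), as did Cd74 (-0.32), H2-Ab1 (-0.03), Mrc1 (0.28), Apoe (0.00), Cx3cr1 (0.22), Mt1 (-0.10), Mt2 (0.29) and Hmox1 (0.07). Lyve1 differed by -1.02 but overlapped, being at 0 in CS mouse 4 and RA mouse 3. Of 286 listed genes that could be tested, 18 did not overlap (6.29%), close to the 7.35% of all genes.

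By list, 30 of 33 chemokines and cytokines could be tested, 13 higher and 17 lower in CS with a median of -0.21, beside 0.03 over all genes. Ccl2 (-1.15), Ccl3 (-1.07) and Ccl4 (-1.16) were lower, and Ccl8 (1.24) and Ccl12 (0.77) higher, none without overlap. Of 12 genes linked to the Lyve1-rich population 10 were lower (median -0.39), of which Folr2 alone did not overlap. With class II-low cells left out, 16 of 26 of which came from RA mouse 1, the log2 difference was 0.01 for Folr2 (-0.69 with them) and 0.01 for Lyve1 (-1.02 with them). Of the 16 immediate-early and stress genes, Hspa1a (-1.12) and Hspa1b (-0.46) among them, 13 were lower (median -0.39), with Jun at -0.76 and Jund at -0.80. CS mouse 1, outside the test, had Jund at 12.2 and Fos at 16.5, both above every other mouse, and Jun at 6.93, below the RA mice. Of 15 cytosolic chaperones 14 were lower (median -0.26). Summed over the list, chaperones were at 34.3 to 59.0 transcripts per 10,000 in CS mice 2 to 4 and 59.9 to 79.3 in RA mice, and immediate-early and stress genes at 99.1 to 201 and 189 to 212. In the same mice Cxcl2, Cd14, Ccl2, Ccl3 and Ccl4 were lower in CS as well, and the part of handling in them was not tested. Lipid handling genes had a median of 0.23 and lysosomal proteases of 0.13, and the 14 class II genes, 11 of them tested, of -0.03. Of these 11, 5 were higher in CS and 6 lower. RA mouse 1, with its low class II level, entered that median. On the 3 lanes without RA mouse 1 and CS mouse 1, H2-Aa, H2-Ab1, H2-Eb1 and Cd74 were lower in CS on each lane.

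The response to exposure was also compared between both macrophages of the same mouse. Of 8990 genes tested for an interstitial minus alveolar difference that depended on exposure, 0 passed an adjusted p of 0.05 (0%). The smallest adjusted p was 0.174 (limma), and 651 genes had an unadjusted p under 0.05 (7.24%). For Mfge8, a bridging molecule for apoptotic cells, alveolar macrophages had a log2 difference of 1.16 between CS and RA (adjusted p = 0.00688, limma) and interstitial macrophages of -0.29 (adjusted p = 0.685), and the difference of the differences had an adjusted p of 0.174.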

How the data were processed

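Single-cell RNA from 8 mice was analysed from the matrix, cell table and gene list that the authors deposited. The authors aligned reads with STAR 2.7.3a and STARsolo to GRCm38.p6 with the reporter genes added, counted unique molecular identifiers, subtracted free RNA (SoupX) and assigned the cell labels. The deposited values are expected counts, that is, counts after free RNA removal: 1.28% of the values above 0 are whole (tolerance 1e-06), so no count model was fitted. The percent of mitochondrial transcripts per cell is a deposited column computed by the authors.

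Cells labelled multiplets (1025) and cell cycle (7) were left out. No doublet caller was run. Counts were scaled to 10000 per cell and averaged over the cells of a mouse. Mice needed 5 cells. A gene was tested where 10% or more of either group's cells held it (25% for the labels), with limma 3.58.1 (R 4.3.3) on log2 of the mean plus 1, with a trend and Benjamini-Hochberg adjustment at 0.05. Each sample was a separate mouse. Single values were compared by exact permutation in scipy 1.17.1 (Python 3.11.15, numpy 2.4.6, pandas 2.3.3, matplotlib 3.10.9). The limma step was tested on simulated data. The lane pairs CS and RA mice by the labels. Deviations of mice on the same lane had correlations of -0.0701 to 0.0902 (3 pairs), those on other lanes -0.132 to 0.137 (9 pairs).

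Lists covered 410 genes in 34 lists, of which 405 were in the table. Apoc2, Igkc, Irf8, Itgam and Per3 were not analysed here. Some items are not reported here. Named genes were list members, the 10 with the largest median difference from each comparator in each direction, and for exposure the 8 with the smallest p in each direction, list members without overlap and 13 fixed genes. Il6, Gpnmb, Negr1 and Mfge8, and the chemokines in the exposure comparison, were named after their values were seen. The members, lists and tests were chosen with earlier results of these data known. Gene positions are from GENCODE M21 and promoters from RefSeq. Alternatives were the pseudocount, gene filter, cell minimum, cell weighting, summed counts, quantile scaling, labelled sex, lane and leaving out each mouse.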

Additional observations from a re-analysis of the deposited data

Results flagged for a closer look

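In 49 sets of 4 mice of a group, 3 had 1 mouse far from the other 3, by its gap to the nearest mouse over the range of the set. Chance gives about 1 in 20 sets. The share of class II-low cells was 55.2% in RA mouse 1 and between 6.67% and 12.5% in the other RA mice. Spp1 was at 0.359 transcripts per 10,000 in RA mouse 2, from 2 cells, and at 0 to 0.0276 in the others. Anxa11 was at 2.69 in RA mouse 3 and at 0.801 to 1.05 in the others.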

How the results depend on the processing

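The number of genes called between CS and RA mice was 0 in the main comparison. It was 3 with mice of at least 10 cells (Spp1, Fabp5 and Il6), 2 with mice weighted by their cells (Spp1 and Fabp5), and from 0 to 4 when each mouse was dropped, the 4 being without CS mouse 4. With the lane as a replicate block it was 2 (Spp1 and Negr1). Spp1 and Il6 met the gene filter in these settings through CS cells only, where they were high. All other settings run for this comparison gave 0, among them a pseudocount of 0.1, other gene filters, mice with at least 1 cell, summed counts, quantile scaling and labelled sex, and, added after seeing the data, leaving out cells low in C1q (578 genes with an unadjusted p under 0.05) or in class II (600). The labelled sex went against Xist and Ddx3y in all 4 CS libraries, so its term did not adjust for the sex read from the transcripts. Of 42 genes followed over these settings, 31 kept the sign of their difference in each. Most of the 42 were picked in these data for a small p or for groups without overlap, so their kept signs are no support. Of the fixed genes, Cx3cr1 and Mt2 kept the sign, whereas H2-Ab1 changed it in 11 of 19 settings, Apoe in 7 and Hmox1 in 6. The cause of the changes was not tested. The count of genes called for a response that differed between the macrophages was 0 in every setting, the lane block included. The share difference kept its sign, between -1.31 and -0.388 points with 1 mouse left out (exact two-sided permutation p between 0.0571 and 0.371), and with the lane as a block the exact p was 0.25, where 0.125 is the smallest 4 lanes allow. The differences of the named genes from alveolar macrophages, classical monocytes and non-classical monocytes were recomputed. Each move was set against the median SD over mice of all genes compared with that label (0.337, 0.312 and 0.340). Of 120 recomputed differences 116 moved by less. Those of H2-Eb1 (3.58), H2-Ab1 (2.96) and Ccl4 (2.94) from classical monocytes and of Stk10 (-3.43) from non-classical monocytes moved further with the same sign. Depth per cell differed by -1981 to -498 transcripts with 1 mouse left out. With 3 to 29 cells per mouse, genes under about 1 transcript per 10,000 rest on a few cells, and a median standard error of 0.21 limits what 7 mice can show.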
